A study of Arabidopsis thaliana with 6 samples.

Results

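The 43 genes described here encode proteins of the cytosolic large ribosomal subunit of Arabidopsis thaliana. They were listed by locus identifier out of 33602 genes in the gene table, with earlier results of these data known. The listed genes form 18 families of 2 or 3 paralogues each, and family sums and shares count these genes only. The 6 libraries came from whole seedlings, 3 of a prmt5 mutant and 3 of the wild type accession Col (WT). Seeds were held cold and dark for 4 days at 4 °C, and the plants were then kept in constant white light at 22 °C until harvest at 9 days. Both genotypes are of the Col-0 ecotype, and the labels name no allele of prmt5. RNA of all tissues was pooled within a sample, so fewer cells of a type and less RNA per cell cannot be told apart.

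The large subunit of the ribosome carries the peptidyl transferase centre, where amino acids are joined, and the tunnel through which the new chain leaves. Plants keep several gene copies for nearly every ribosomal protein, and the copies often encode almost the same protein. In the universal names given beside the families, u marks a protein shared with bacteria and e one found in eukaryotes but not in bacteria. PRMT5 is the enzyme that symmetrically dimethylates arginines, among others in Sm proteins of the small nuclear ribonucleoproteins that recognise introns. An intron begins at its 5′ splice site, the donor, which is read by base pairing with small nuclear RNAs.

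The 5′ splice sites of the introns on which the results turn are printed from the TAIR10.1 assembly, 5′ to 3′ along the gene, with 10 exon bases, the first 6 intron bases in capitals and 14 further intron bases. The commonest donor in plants has AG at the end of the exon and GTAAGT at the start of the intron. The first set is intron 2 of the 3 RPL34 genes, which interrupts the coding sequences at the same position. Its donors lie at chr1:26190147-26190176 on the plus strand for AT1G69620 and, on the minus strand, at chr3:10904130-10904159 for AT3G28900 and chr1:9316380-9316409 for AT1G26880. The fourth line is an unannotated donor inside intron 2 of AT1G69620, at chr1:26190425-26190454.
AT1G69620 intron 2: tattcagggtGTTAGTattcttcagattca
AT3G28900 intron 2: aatccaagggGTAATCttttctattcaatt
AT1G26880 intron 2: tattcaaggaGTAAGTcttctgatttcgat
AT1G69620 unannotated donor: gcagaaatagGTAAATcatcttggaaactt

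The second set holds the 2 competing donors of the 5′ UTR intron of the RPL10a gene AT2G27530, known as PGY1, at chr2:11764694-11764723 and chr2:11764748-11764777 on the minus strand. The third set is intron 1 of the RPL24 genes AT3G53020 (STV1, chr3:19661882-19661911) and AT2G36620 (RPL24A, chr2:15351789-15351818), both on the minus strand. In these 2 genes the last exon bases and the capital letters are identical.
PGY1 minor donor: ttcgttcatcGTAATTccatgaagtttttc
PGY1 main donor: caccattcagGTTTGTctctctccacaaac
STV1 intron 1: tggttctcaaGTAATCaaatctcacctctc
RPL24A intron 1: tggttctcaaGTAATCaatctcttctctat

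The prmt5 libraries held 41465842 to 67300273 gene counts and the WT libraries 38564256 to 75461631. The members took 1.01% ± 0.0448 of all gene counts in prmt5 and 0.895% ± 0.104 in WT (SD, n = 3 each), with overlapping groups (exact permutation p 0.2, two-sided). WT replicate 2 stood apart from its group for these genes, with 1.01% against 0.801% and 0.879% in WT replicates 1 and 3. The PRMT5 gene itself (AT4G31120) was at 34.7, 28.9 and 33.1 CPM (read counts scaled to library size) in prmt5 and at 30.2, 28.7 and 31.1 CPM in WT (log2 change 0.11, SE 0.07, edgeR adjusted p 0.301). Its level therefore does not check the labels, but 1 of its annotated junctions had 5, 3 and 17 counts in prmt5 against 104, 83 and 116 in WT.

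Transcript levels of the large subunit genes differed little between the genotypes. All 43 members passed the filter on low counts, and 3 of them passed the threshold of adjusted p under 0.05 in edgeR's quasi-likelihood test, 2 higher and 1 lower in prmt5. Over all 22509 genes tested, 33.3% passed, 17.9% higher and 15.4% lower. The median log2 change, prmt5 over WT, was 0.10 over the members and 0.01 over all tested genes. The estimates were positive for 39 members and negative for 4, and ran from -0.29 to 0.30. None reached 2-fold.

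SAG24 (AT1G66580), an RPL10 gene first described as senescence-associated, had 174, 163 and 175 CPM in prmt5 and 124, 158 and 135 CPM in WT. All prmt5 libraries were above all WT libraries, by 0.30 on the log2 scale (SE 0.09, edgeR adjusted p 0.0271). The call was lost without prmt5 replicate 1 (0.0774), prmt5 replicate 3 (0.0821), WT replicate 1 (0.0849) or WT replicate 3 (0.0964). The RPL4 gene AT3G09630, whose protein lines the exit tunnel, had 336, 341 and 359 CPM in prmt5 and 294, 309.9 and 296 CPM in WT, without overlap. Its log2 change was 0.21 (SE 0.07, adjusted p 0.0449). That call was lost without any 1 of the libraries other than WT replicate 2, with adjusted p of 0.087 to 0.145, and with RLE size factors (0.0537), upper quartile scaling (0.0611), no filter on low counts (0.0566) or gene plus intron counts (0.0597).

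The other RPL4 gene, AT5G02870, had 445, 441 and 457 CPM in prmt5 and 379, 394 and 402 CPM in WT. Its log2 change of 0.19 (SE 0.07) was close to that of its paralogue but missed the threshold (adjusted p 0.0599). AT4G29410, an RPL28 gene, had 100.4, 92.43 and 97.1 CPM in prmt5 and 74.5, 92.42 and 83.0 CPM in WT (log2 change 0.22, SE 0.08, adjusted p 0.0634). In that gene the highest WT library lay just below the lowest prmt5 library.

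RPL3B (AT1G61580), the minor copy of the RPL3 pair, had 24.6, 25.5 and 24.1 CPM in prmt5 and 27.8, 33.9 and 28.9 CPM in WT. Every prmt5 library was below every WT library, and the log2 change was -0.29 (SE 0.08, adjusted p 0.0163). The adjusted p was 0.0566 without prmt5 replicate 3. The remaining negative estimates were near 0. AT3G53430 of RPL12 had 198, 189 and 190.4 CPM in prmt5 and 194, 217 and 198 CPM in WT (log2 change -0.08, adjusted p 0.438). AT2G19730 of RPL28 had 193, 177 and 192 CPM in prmt5 and 172, 207 and 188 CPM in WT (-0.01, adjusted p 0.942). AT1G74050 of RPL6 had 173, 163 and 171 CPM in prmt5 and 158, 175 and 174 CPM in WT (adjusted p 0.993).

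WT replicate 2 moved the count of called members more than any other library. Without it 11 members were higher and 1 lower, against 17.2% higher and 33.8% called in either direction over all genes in the same fit. Without prmt5 replicate 3 the count was 0, and without prmt5 replicate 1, WT replicate 1 or WT replicate 3 it was 1.

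**Figure D1:**
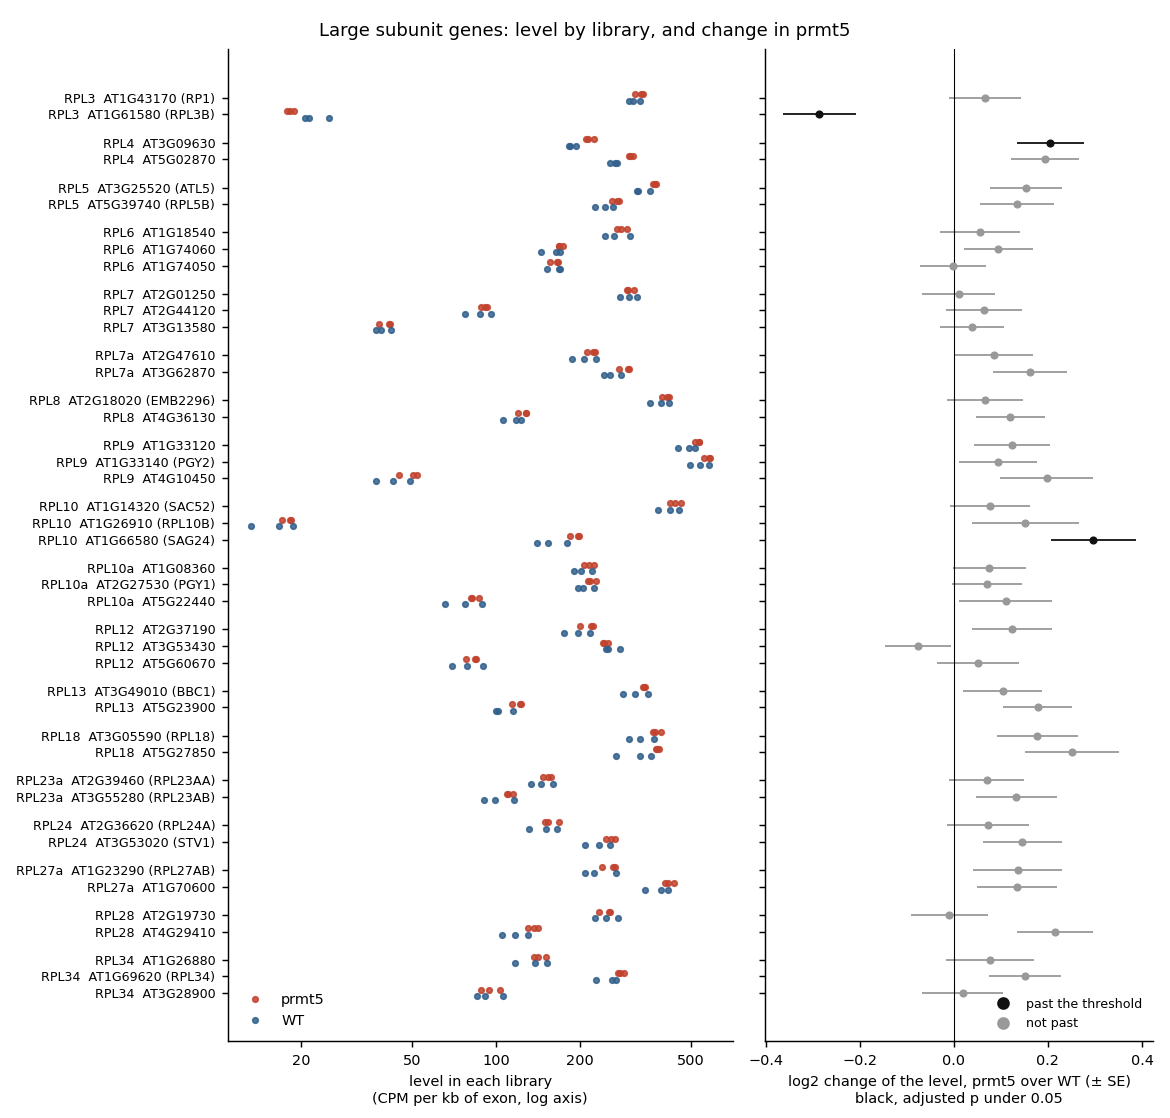
Left, the level of each member in each library (CPM per kb of exon, log axis), grouped by family, with prmt5 above WT. Right, the log2 change of the level, prmt5 over WT, with its SE. The points of both genotypes lie close together in nearly all families, and RPL3B, AT3G09630 and SAG24 are the members past the threshold (black).

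The families and their copies differed far more from each other than the genotypes did. Levels per kb of exon are compared in the next sentences as mean ± SD over 3 libraries of each genotype, in CPM per kb. RPL9 (uL6) lies near the site where elongation factors bind. Among the members it was the most abundant family in both genotypes, with a sum of 1155 ± 29.4 in prmt5 and 1069 ± 82.1 in WT. Its copies PGY2 (AT1G33140; 575 ± 14.0 in prmt5, 539 ± 41.7 in WT) and AT1G33120 (531 ± 11.7 in prmt5, 487 ± 34.7 in WT) share 99.1% of their aligned coding bases. Of their exon stretches of 50 bases, 55.3% and 54.0% occur elsewhere in the genome, so reads could be split between them and both values are uncertain. The third copy, AT4G10450, was at 49.1 ± 3.84 in prmt5 and 42.9 ± 5.97 in WT. RPL23a (uL23), the docking site for chaperones and the signal recognition particle at the tunnel exit, was the least abundant of the member families per kb. It summed to 265 ± 8.17 in prmt5 and 248 ± 25.7 in WT, with RPL23AA (AT2G39460) at 153 ± 5.43 in prmt5 and 146 ± 12.9 in WT and RPL23AB (AT3G55280) at 111 ± 3.02 in prmt5 and 102 ± 12.8 in WT. That rank depends on annotated exon length, which is 1559 bases in RPL23AA and 777 in RPL23AB. In CPM not divided by length, RPL28 was lowest (284 ± 13.2 in prmt5, 272 ± 26.6 in WT). RPL23a was then at 325 ± 10.5 in prmt5 and 307 ± 30.1 in WT.

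Among proteins near the peptidyl transferase centre, RPL3 (uL3) came almost wholly from RP1 (AT1G43170), at 328 ± 10.9 in prmt5 and 314 ± 13.9 in WT. RPL3B was at 18.3 ± 0.545 in prmt5 and 22.3 ± 2.38 in WT. RPL8 (uL2) was led by EMB2296 (AT2G18020), at 407 ± 11.2 in prmt5 and 389 ± 30.2 in WT, and AT4G36130 was at 126 ± 4.79 in prmt5 and 116 ± 8.82 in WT. RPL10 (uL16) is added late, in the cytoplasm, and its main copy is SAC52 (AT1G14320), found as a suppressor of the dwarf mutant acaulis5. SAC52 was at 441 ± 19.8 in prmt5 and 418 ± 36.9 in WT, SAG24 at 193 ± 7.84 in prmt5 and 158 ± 20.2 in WT. RPL10B (AT1G26910) was at 17.8 ± 0.734 in prmt5 and 16.1 ± 2.79 in WT, and with RPL3B it was the lowest of the members in both genotypes.

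RPL4 (uL4), the tunnel protein, was shared between AT5G02870 (304 ± 5.81 in prmt5, 266 ± 8.0 in WT) and AT3G09630 (216 ± 7.47 in prmt5, 187 ± 5.51 in WT). RPL5 (uL18) belongs to the central protuberance. Its copies were ATL5 (AT3G25520; 371 ± 3.88 in prmt5, 334 ± 20.6 in WT) and RPL5B (AT5G39740; 269 ± 7.85 in prmt5, 245 ± 18.1 in WT). RPL10a (uL1) forms the mobile stalk at the exit site of transfer RNA. PGY1, whose mutants alter leaf shape, was at 219.6 ± 8.44 in prmt5 and 209 ± 14.0 in WT, next to AT1G08360 at 215 ± 9.46 in prmt5 and 204 ± 16.1 in WT. AT5G22440 was lower, at 83.4 ± 3.15 in prmt5 and 77.4 ± 11.8 in WT. RPL12 (uL11) sits at the base of the stalk that activates elongation factors, and its 3 genes have no intron. They were at 246 ± 6.12 in prmt5 and 259 ± 15.9 in WT (AT3G53430), 214 ± 12.4 in prmt5 and 197 ± 20.6 in WT (AT2G37190), and 82.1 ± 3.67 in prmt5 and 79.4 ± 10.2 in WT (AT5G60670).

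RPL24 (eL24) bridges to the small subunit, and STV1, first known for patterning of the gynoecium, is one of its copies. STV1 was at 258 ± 10.0 in prmt5 and 233 ± 24.3 in WT, and RPL24A at 157 ± 9.37 in prmt5 and 149 ± 16.9 in WT. RPL7 (uL30) was graded over its 3 copies. AT2G01250 was at 302 ± 10.0 in prmt5 and 300.2 ± 22.0 in WT, AT2G44120 at 90.8 ± 2.42 in prmt5 and 86.9 ± 9.0 in WT, and AT3G13580 at 40.2 ± 2.01 in prmt5 and 39.2 ± 2.42 in WT. RPL27a (uL15), also without introns, was at 419 ± 15.4 in prmt5 and 382 ± 36.8 in WT for AT1G70600, and at 257 ± 15.0 in prmt5 and 234 ± 31.8 in WT for RPL27AB (AT1G23290).

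The proteins without a bacterial counterpart lay within the range of the others. RPL18 (eL18) came from 2 copies of like level, AT5G27850 at 379 ± 4.37 in prmt5 and 319 ± 46.0 in WT and RPL18 (AT3G05590) at 376 ± 13.7 in prmt5 and 333 ± 35.0 in WT. RPL6 (eL6) was at 283 ± 11.9 in prmt5 and 272 ± 28.6 in WT for AT1G18540. Its neighbouring copies were AT1G74060 (169.9 ± 3.04 in prmt5, 159 ± 12.9 in WT) and AT1G74050 (163 ± 5.29 in prmt5, 163 ± 9.42 in WT). These 2 copies overlapped in WT, but in prmt5 every value of AT1G74060 was above every value of AT1G74050. RPL7a (eL8) came from AT3G62870 (292 ± 12.9 in prmt5, 261 ± 18.4 in WT) and AT2G47610 (220.4 ± 6.90 in prmt5, 208 ± 20.7 in WT). RPL13 (eL13) came mainly from BBC1 (AT3G49010; 339.9 ± 3.29 in prmt5, 316 ± 32.4 in WT), with AT5G23900 at 119.6 ± 5.01 in prmt5 and 106 ± 8.45 in WT. RPL28 (eL28) came from AT2G19730 (248 ± 12.4 in prmt5, 249.6 ± 23.3 in WT) and AT4G29410 (136 ± 5.63 in prmt5, 118 ± 12.6 in WT). RPL34 (eL34) came from AT1G69620 (281 ± 7.18 in prmt5, 253 ± 21.6 in WT), AT1G26880 (143 ± 7.66 in prmt5, 136 ± 18.1 in WT) and AT3G28900 (95.2 ± 7.26 in prmt5, 94.1 ± 10.6 in WT).

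The use of paralogues within a family moved by a few percentage points at most. In no family did the log2 changes of 2 copies differ by 0.5 or more, and the widest range was 0.35, between RP1 and RPL3B. AT4G29410 supplied 34.0% ± 0.430 of RPL28 counts in prmt5 and 30.6% ± 0.305 in WT (SD, n = 3 each), the largest shift of any share, and AT2G19730 the rest. SAG24 supplied 27.7% ± 0.526 of RPL10 counts in prmt5 and 24.8% ± 0.826 in WT, while SAC52 supplied 69.7% ± 0.574 in prmt5 and 72.7% ± 0.936 in WT. In RPL12, AT2G37190 supplied 38.0% ± 1.43 in prmt5 and 35.2% ± 0.985 in WT. RPL3B supplied 4.56% ± 0.277 in prmt5 and 5.74% ± 0.337 in WT. In each of these the libraries of the genotypes did not overlap, with an exact two-sided permutation p of 0.1, the smallest that 3 against 3 libraries allow. Over the 43 shares compared, the smallest p after Benjamini-Hochberg adjustment was 0.253. With an exact p of 0.1 or more, none could have passed, so the adjustment does not judge these shifts.

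The other ribosomal protein genes showed small changes too. Of 91 small subunit genes 87 were tested, and 9 were higher and 0 lower in prmt5 (median log2 change 0.07), the smallest p belonging to AT1G58380 of RPS2 (77.5 ± 2.06 CPM in prmt5, 63.2 ± 4.51 CPM in WT) and AT3G45030 of RPS20 (87.0 ± 3.14 CPM in prmt5, 72.0 ± 4.89 CPM in WT). Of 91 further large subunit genes 85 were tested, and 9 were higher and 0 lower (median 0.07), led by AT3G02190 of RPL39 (17.0 ± 0.322 CPM in prmt5, 12.1 ± 1.26 CPM in WT) and AT1G04480 of RPL23 (124 ± 10.5 CPM in prmt5, 97.7 ± 9.95 CPM in WT). In both lists the share of higher genes was below the 17.9% of all genes, but without WT replicate 2 it was above the 17.2% of all genes, at 26.4% of the small subunit genes and 27.1% of the other large subunit genes. Both counts moved with single libraries, to 23 called genes in either list without WT replicate 2 and to 2 in either list without WT replicate 3. In the small subunit list the count was 3 without prmt5 replicate 1, 5 without prmt5 replicate 3 and 5 without WT replicate 1. In the other large subunit genes it was 1, 3 and 2 without the same libraries. Of the member promoters, from 250 bases before to 50 after the annotated start, 44.2% held the telo box AAACCCTA on either strand, against 6.22% of all protein-coding genes. The site II letters TGGGCC or TGGGCT, on either strand, were in 76.7% against 21.7%, and an overlap of the 2 motifs was allowed. Both elements are known from promoters of plant ribosomal protein genes.

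Intron retention separated single members sharply. Of 140 intron bins in 38 members, 137 were tested for the ratio of intron to gene counts, and 14 bins in 11 genes of 8 families were raised in prmt5 (edgeR adjusted p under 0.05). None of the 137 was lowered. Among all 53291 tested introns 21.6% were raised and 0.514% lowered, and among the member introns 10.2% were raised. The median log2 change was 0.16 over the member introns and 0.37 over all tested introns. With that overall median taken as 0, 5 member introns were raised and 18 lowered, against 12.4% and 3.51% of all introns. The member introns had a median of 57.2 counts per library, against 13.2 for all tested introns. The 3 untested bins lie in RPL3B. The other ribosomal protein lists resembled the members, with 34 of 246 introns raised in the small subunit genes and 25 of 224 in the other large subunit genes.

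**Figure D2:**
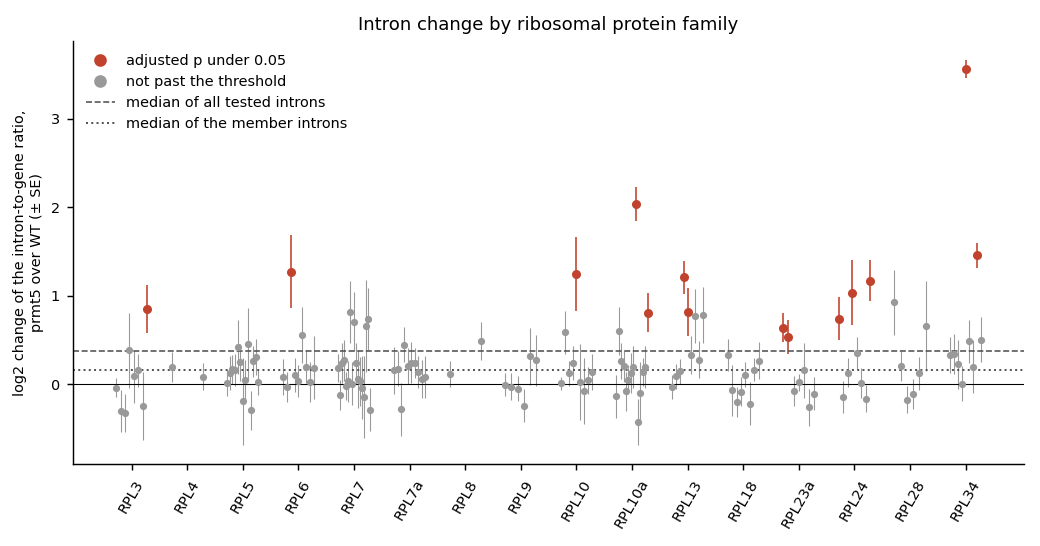
Change of intron usage (intron counts over gene counts, log2, prmt5 over WT) with its SE for every tested intron bin by family. Red points passed the threshold, and intron 2 of AT1G69620 at 3.56 lies far above the other members. The dotted line is the median of the member introns (0.16) and the dashed line that of all tested introns (0.37).

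Intron 2 of the RPL34 gene AT1G69620, 640 bases in the coding region, stood out among the members. It had 3823, 2699 and 4203 counts in prmt5 and 270, 234 and 371 in WT. Counts in the intron were thus 35.0% ± 2.19 of the counts of the gene in prmt5 and 2.98% ± 0.325 in WT (SD, n = 3 each), and the groups were far apart. The log2 change was 3.56 (SE 0.10, edgeR adjusted p 5.0e-27), and 1 of the 53291 tested introns had a smaller p. A larger log2 change was found in 558 of the tested introns. Per base, the intron reached 36.5% ± 2.28 of the density of the exons in prmt5 and 3.10% ± 0.338 in WT. The reading frame entering the intron meets a stop codon at intron base 103.

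The junction counts, which come from spliced reads, gave a second measure of the same intron. The junction of intron 2 had 1463, 1115 and 2005 counts in prmt5 and 2087, 1479 and 2665 in WT. Relative to the mean of the junctions of introns 1 and 3, this was 54.4%, 57.4% and 58.8% in prmt5 and 77.5%, 79.9% and 79.5% in WT. Every prmt5 library was below every WT library (exact permutation p 0.1, the smallest possible). The counts of the gene, which leave out intron reads, were at a log2 change of 0.15 (SE 0.08, adjusted p 0.150). With the counts of its introns added the log2 change was 0.52 (SE 0.08, adjusted p 5.3e-04). The added counts include those of the raised intron 2, so this value is not a separate observation of the gene level.

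The unannotated donor inside intron 2 of AT1G69620 was used more in prmt5. It lies 278 bases into the intron, and its junction to the usual acceptor had 20, 8 and 20 counts in prmt5 and 1, 1 and 3 in WT. This was 0.996% ± 0.313 of the counts on that acceptor in prmt5 and 0.0750% ± 0.0327 in WT (log2 change 3.61, edgeR diffSpliceDGE adjusted p 3.6e-06). Among 32 member junctions tested 3 passed the threshold, against 5.90% of all 8106 tested junctions. The score of the printed 5′ splice sites, a log2 odds sum over the last 3 exon and first 6 intron bases with a highest possible value of 11.8, was 7.62 for the unannotated donor and 3.01 for the annotated one.

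The 3 RPL34 genes differed at the same intron. AT3G28900 had 301, 197 and 307 counts in its intron 2 of 1003 bases in prmt5 and 111, 80 and 116 in WT, or 8.30% ± 0.624 of gene counts in prmt5 and 3.02% ± 0.177 in WT. The groups did not overlap (log2 change 1.46, SE 0.14, adjusted p 7.5e-11). AT1G26880 had 62, 77 and 62 counts in its intron 2 of 470 bases in prmt5 and 56, 34 and 77 in WT. These groups overlapped, and the intron was not past the threshold (log2 change 0.34, SE 0.23, adjusted p 0.332). The change of AT1G69620 exceeded that of AT1G26880 by 3.21 and that of AT3G28900 by 2.10 on the log2 scale, and the change of AT3G28900 exceeded that of AT1G26880 by 1.11. In all 3 pairs the libraries did not overlap and the exact permutation p was 0.1, the smallest possible. The donor scores were 3.01 for AT1G69620, 4.83 for AT1G26880 and 6.14 for AT3G28900. The order of the scores was thus not the order of the changes. The intron 2 junction, relative to the mean of its neighbours, overlapped between genotypes in AT3G28900. It was 96.3%, 84.6% and 100.5% in prmt5 and 95.6%, 103.9% and 99.7% in WT (exact permutation p 0.5). In AT1G26880 it was higher in prmt5, with 86.9%, 95.6% and 94.2% against 84.4%, 85.9% and 85.9% in WT (exact permutation p 0.1). A clear fall of this junction was thus seen in AT1G69620 only.

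AT3G28900 also skipped its exon 2 more often in prmt5. The skipped exon, of 80 bases (chr3:10904150-10904229), lies just before intron 2, and the unannotated junction that leaves it out had 55, 40 and 73 counts in prmt5 and 16, 9 and 15 in WT. Skipping made up 7.61% ± 0.401 of skipping plus mean inclusion in prmt5 and 1.63% ± 0.220 in WT, with no overlap (log2 change 2.29, adjusted p 8.9e-08). Exon 2 has the same length in the other 2 RPL34 genes. There the skipping junction had no counts in AT1G26880, and 1 count in WT replicate 2 and none elsewhere in AT1G69620.

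**Figure D3:**
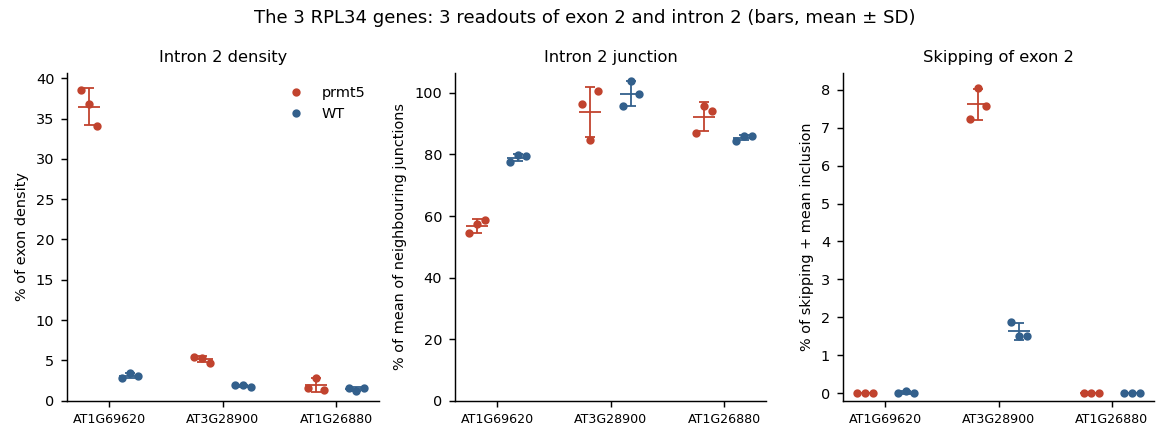
Intron 2 density as a percent of exon density, the intron 2 junction as a percent of the mean of its neighbouring junctions, and skipping of exon 2, in each library of the 3 RPL34 genes with mean ± SD. AT1G69620 shows the high intron density and the low junction in prmt5, AT3G28900 the skipping (7.61% in prmt5, 1.63% in WT), and AT1G26880 neither. The junction of AT1G26880 was higher in prmt5.

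In PGY1 a bin of the 5′ UTR intron was raised, and the minor donor of that intron was used less in prmt5. The annotated intron of 109 bases that starts at the minor donor lies within the main intron of 163 bases, and both use the same acceptor. The bin of 109 bases had 159, 114 and 150 counts in prmt5 and 41, 27 and 38 in WT, without overlap (log2 change 2.03, SE 0.19, adjusted p 2.6e-11). The minor donor, with a score of 2.62, had 15, 9 and 23 junction counts in prmt5 and 51, 33 and 58 in WT. It took 3.03% ± 0.674 of the pair in prmt5 and 8.25% ± 0.389 in WT (log2 change -1.39, adjusted p 4.7e-04), and the main donor, with a score of 9.21, took the rest. The main donor had 464, 380 and 607 junction counts in prmt5 and 596, 369 and 612 in WT. Its junction was not past the threshold (log2 change 0.08). The bin and both donors belong to the same intron and are not separate observations.

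In RPL24 both copies were raised at intron 1, where their donors are identical over the scored bases (score 4.93). STV1 had 62, 51 and 96 counts in prmt5 and 38, 23 and 27 in WT (log2 change 1.17, SE 0.23, adjusted p 1.5e-04). RPL24A had 37, 18 and 31 counts in prmt5 and 7, 22 and 12 in WT (log2 change 1.04, SE 0.36, adjusted p 0.0338), and its groups overlapped. The difference between the 2 copies was 0.02 on the log2 scale (exact permutation p 1.0). RPL24A was also raised at its intron 4, with 56, 42 and 54 counts in prmt5 and 24, 26 and 43 in WT (log2 change 0.74, SE 0.24, adjusted p 0.0216). Intron 4 of STV1 was not past the threshold, and the difference between the copies there was 0.40 (exact permutation p 0.1).

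BBC1, the main RPL13 gene, held 2 raised bins in the same stretch of its 5′ UTR. Both lie within the intron of 587 bases that the main junction there removes, and they are not separate observations. The bin of 465 bases had 114, 94 and 148 counts in prmt5 and 44, 42 and 67 in WT (log2 change 1.21, SE 0.18, adjusted p 1.5e-06). The bin of 72 bases, which matches no intron of the RefSeq annotation, had 40, 45 and 45 counts in prmt5 and 27, 22 and 25 in WT (log2 change 0.81, SE 0.27, adjusted p 0.0233). Per base, the longer bin was at 1.38% ± 0.0561 of exon density in prmt5 and 0.597% ± 0.0850 in WT (SD, n = 3 each).

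The other raised introns lay in RPL23a, RPL10a, RPL3, RPL6 and RPL10 genes. RPL23AA had 151, 83 and 190 counts in its 5′ UTR intron in prmt5 and 106, 57 and 111 in WT (log2 change 0.64, SE 0.17, adjusted p 0.0031). AT5G22440 of RPL10a had 58, 48 and 75 counts in intron 2 in prmt5 and 33, 24 and 45 in WT (0.81, SE 0.22, adjusted p 0.0057). RPL3B, the lowered member, had 30, 27 and 45 counts in its 5′ UTR intron in prmt5 and 26, 22 and 25 in WT (0.84, SE 0.27, adjusted p 0.0186). Without the gene count as offset the log2 change of this intron was 0.57 (adjusted p 0.151). In all 3 the ratio of intron to gene counts did not overlap between genotypes. AT1G18540 of RPL6 had 14, 20 and 27 counts in intron 1 in prmt5 and 3, 7 and 16 in WT (1.27, SE 0.42, adjusted p 0.0214). RPL10B had 25, 8 and 22 counts in intron 1 in prmt5 and 5, 4 and 13 in WT (1.25, SE 0.42, adjusted p 0.0278). These 2 introns rest on fewer counts than the other raised ones. The last was the coding intron 1 of RPL23AA, past the threshold with a log2 change of 0.53 (SE 0.20, adjusted p 0.0456).

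**Figure D4:**
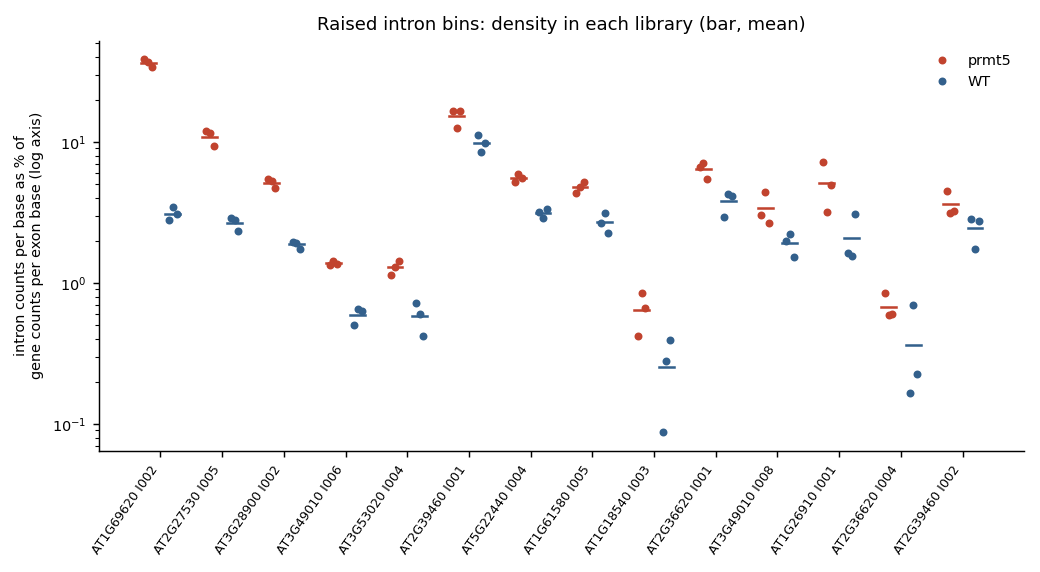
Density of the 14 raised intron bins in each library, as counts per base in percent of gene counts per exon base (log axis), with prmt5 left of WT and bars at the means. The bins are ordered by p, and AT1G69620 lies at 36.5% in prmt5 against 3.10% in WT.

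How firmly the 14 bins were called differed. Without any 1 library, and in DESeq2, 7 of them stayed past the threshold, namely those of AT1G69620, PGY1, AT3G28900, STV1, AT5G22440, the 465-base bin of BBC1 and the 5′ UTR intron of RPL23AA. RPL24A intron 1 was lost without WT replicate 1 (adjusted p 0.219), WT replicate 3 (0.225) or any prmt5 replicate (0.198, 0.0502 and 0.0518 without replicates 1, 2 and 3). RPL24A intron 4 was lost without WT replicate 1 (0.133) or prmt5 replicates 1 (0.0746) or 2 (0.086). RPL10B was lost without WT replicates 1 (0.104) or 2 (0.0766) or prmt5 replicates 1 (0.213) or 3 (0.0558). AT1G18540 was lost without WT replicate 1 (0.176) or prmt5 replicates 2 (0.114) or 3 (0.0761), and RPL3B without WT replicate 3 (0.107) or prmt5 replicate 3 (0.0824). The 72-base bin of BBC1 was lost without WT replicate 3 (0.149) or prmt5 replicate 2 (0.183). The coding intron of RPL23AA was lost without WT replicates 2 (0.191) or 3 (0.061) or prmt5 replicate 1 (0.340).

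Paralogues were compared at 82 pairs of introns in the same position of the aligned coding sequences, 12 of them with a raised intron. Of all 82 pairs, 16 had the exact permutation p of 0.1, including pairs without a raised intron. Among those, an RPL7 intron of AT2G44120 exceeded that of AT2G01250 by 0.99. The pairs named here, in RPL34 and in RPL24 were chosen for an intron raised in the same libraries. That choice favours a positive difference, so their p is not separate support. Besides RPL34, the change of AT1G18540 at intron 1 exceeded that of AT1G74060 by 1.22 (exact permutation p 0.1) and that of AT1G74050 by 0.93 (p 0.4). With a pseudocount of 5 these differences were 0.85 and 0.56. The donor of AT1G18540 (chr1:6378272-6378301, minus strand) scored 4.04, against 8.81 in both paralogues. It is printed with that of AT1G74060 (chr1:27851023-27851052, minus strand) because the exon ends differ just before the intron.
AT1G18540 intron 1: ccaagctaaaGTATTTatccatcttcttct
AT1G74060 intron 1: ccaagctcagGTACTTagctgatacactgt
RPL23AA exceeded RPL23AB by 0.82 at the coding intron (exact permutation p 0.1), with scores of 8.97 and 9.23. RPL10B exceeded SAG24 by 1.29 and SAC52 by 0.65 at intron 1 (exact permutation p 0.2 for both), with scores of 6.04 for RPL10B and 6.84 for each of the others. With a pseudocount of 5 the differences were 0.93 from SAG24 and 0.32 from SAC52. AT5G22440 exceeded PGY1 by 0.66 (exact permutation p 0.1) and AT1G08360 by 0.22 (p 0.5) at intron 2. Over the 82 pairs the smallest adjusted p was 0.512. With an exact p of 0.1 or more, no pair could have passed, so the adjustment does not judge these differences.

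Weak donors were rarer among the member introns than among all tested introns, and the raised member introns had lower scores. The median score was 6.04 over 13 raised member bins that match an annotated intron, 7.62 over 119 that were not raised, and 7.03 over all 50683 scored introns. In the lowest quartile of all scores, under 5.43, lay 12684 of those 50683 introns and 15.9% of the member introns, and 6 of those 21 were raised, against 42.4% of all introns in that quartile. In the following quartiles 3 of 31, 1 of 38 and 3 of 42 member introns were raised, against 24.0%, 14.9% and 7.38% of all introns. The 2 lowest scores of raised bins belong to donors that were little used. The donor of PGY1 with a score of 2.62 took a few percent of its junction pair, and that of the 465-base bin of BBC1 (1.65) had 2, 1 and 2 junction counts in prmt5 and 4, 1 and 3 in WT. The main junction of that stretch of BBC1 had 905 to 1271 counts in prmt5 and 760 to 1467 in WT, at a donor with a score of 2.28. These values describe introns, which share genes and libraries and are not replicates.

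**Figure D5:**
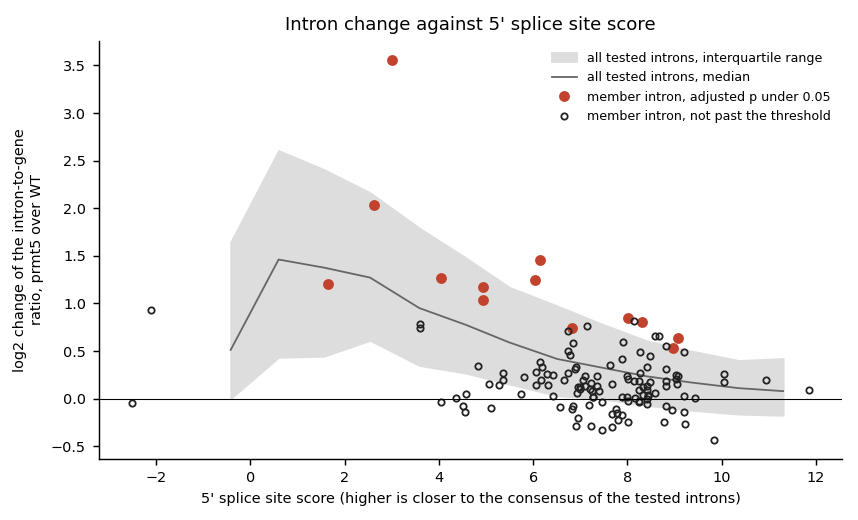
Log2 change of intron usage (prmt5 over WT) against the 5′ splice site score of member introns, over the median and interquartile range of all tested introns. The raised members (red) reach from a score of 1.65 to 9.07, and intron 2 of AT1G69620 lies at 3.01.

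Most raised bins were the first of their gene. Of the 137 tested member bins, 131 are introns in every transcript and 6 are exon in another one, and the 131 were counted here. Among them 9 of the 38 first ones of a gene were raised (23.7%), against 5 of 93 later ones (5.38%). In AT5G22440 the first such bin is intron 2, since its intron 1 is exon in another transcript. Over all tested introns the shares were 25.4% of first and 21.0% of later bins. The first introns of the members, counted by the RefSeq annotation, were longer, with a median of 268 bases against 98 in later introns. Of 12 scored introns in the 5′ UTR 4 were raised, and 9 of 119 in the coding region. The raised 5′ UTR bins include those of PGY1 and BBC1 at little used donors. Shares by region over all tested introns were not computed, so these counts cannot be called particular to the members.

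Summed over the members, intron bins held 3.33%, 3.23% and 3.13% of intron plus exon bin counts in prmt5 and 2.60%, 2.69% and 2.65% in WT. The groups did not overlap, with a difference of 0.588 percentage points (exact permutation p 0.1, the smallest possible). Over all genes the share was 3.91% ± 0.167 in prmt5 and 3.02% ± 0.167 in WT. A single intron made up most of the difference. Over bins that are introns in every transcript the difference was 0.621 points, and without intron 2 of AT1G69620 it was 0.166 points, at 1.36% ± 0.0546 in prmt5 and 1.20% ± 0.0361 in WT. Unannotated junctions took 0.0826% ± 0.00285 of member junction counts in prmt5 and 0.0617% ± 0.00288 in WT (exact permutation p 0.1).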

How the data were processed

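The labels give no culture or plant for a library, so p-values measure the spread between these libraries. Reads were aligned with STAR to TAIR10, per the submitters' processing notes. The deposited tables hold raw counts per gene, exon bin, intron and junction, which the authors did not normalize. All columns were matched to samples by name. Gene counts leave out intron reads, since an intron exceeds its gene's count in 258 genes. The labels' protocols describe no step that marks strand. Polyadenylated RNA from 3 µg of total RNA was amplified with 12 PCR cycles, and the labels name no molecular identifiers.

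Gene counts were fitted with edgeR 4.0.16 under R 4.3.3 (TMM, default expression filter, robust quasi-likelihood F test, genotype as the only term), over all genes, with Benjamini-Hochberg adjustment. Introns averaging 5 or more counts per library, in genes averaging 50 or more, were tested with the log of the gene count plus 0.5 as offset, and junctions with a mean of at least 5 by diffSpliceDGE in clusters that share a donor or acceptor. SE is the absolute log2 change over the root of F. CPM uses TMM library sizes. Ratios between paralogues add 0.5 to both counts. DESeq2 1.42.0 and limma 3.58.1 were alternatives. Score weights came from 50683 tested introns. Of 110931 annotated junctions 98.5% were flanked by GT and AG in TAIR10.1, and 0% after a shift of 1 base. Symbols and sequences are RefSeq's, and 18 members have a symbol. Python 3.11.15 with scipy 1.17.1, pandas 2.3.3, numpy 2.4.6, Biopython 1.88 and matplotlib 3.10.9 was used. The main edgeR fits of gene level, intron usage and junction choice were tested on simulated data, and the alternatives were not.

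The members and lists were chosen with earlier results of these data known. Named with values per library were the 4 higher and 4 lower members and the 12 introns of smallest p, every called junction, paralogues whose log2 changes differ by at least 0.5, and at most 2 genes of each other list. Libraries of a genotype differed beyond sampling noise (chi-square per degree of freedom 12.7 to 31.9). Plants exposed to cold, which the series text mentions, were not analysed here.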

Additional observations from a re-analysis of the deposited data

How the results depend on the processing

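The count of 3 members called in gene level became 5 in DESeq2, 1 with the replicate block, 0 at a fold of at least 2, and 0 to 12 with single libraries left out. The 9 small subunit genes became 4 with the replicate block and 2 to 23 with single libraries left out. The 9 other large subunit genes became 5 with upper quartile scaling, 2 with the replicate block and 1 to 23 with single libraries left out. Same-numbered libraries of the 2 genotypes deviated in opposite directions over all genes, with correlations of -0.202, -0.173 and -0.129. Over the members the correlations were -0.432, -0.174 and 0.002. These values show no pairing by number, but with 3 libraries per genotype they cannot exclude it. The replicate block ended the calls of SAG24 (adjusted p 0.0662) and AT3G09630 (0.151). The 14 raised introns became 7 in DESeq2, 10 to 13 with single libraries left out, and 23 called introns, 5 raised and 18 lowered, with the median log2 change removed. The direction of small intron changes thus depends on that centring, and the bins of AT1G69620, PGY1, AT3G28900, STV1 and the 465-base bin of BBC1 were past the threshold in all alternatives. The 3 junctions were called in every alternative in which they were tested, and the junction of 20, 8 and 20 counts was too low to be tested at a mean of at least 20. The intronic share of the members differed by 0.588 points, by 0.794 points as a percent of gene counts and, in an alternative chosen after seeing the data, by 0.166 points over introns without intron 2 of AT1G69620. The causes were not tested. The largest shift of a paralogue share (3.26 to 3.66 points in size) and the largest difference between paralogous introns (3.03 to 3.52) kept their direction with single libraries left out. Precision is limited in the raised introns of RPL3B, RPL10B and AT1G18540, in RPL24A intron 1 and in the 72-base bin of BBC1, which had under 50 counts in each library.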
